A study of Mus musculus with 4 samples.

Results

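The methyl-CpG binding proteins described here are the products of 9 mouse genes, *Mbd1*, *Mbd2*, *Mbd3*, *Mbd4*, *Mbd5*, *Mbd6*, *Zbtb33*, *Zbtb4* and *Zbtb38*. They were chosen by name as the MBD family and the zinc finger family of methyl-DNA readers, and all 9 were found by symbol among the 55573 genes counted. RNA sequencing was performed on FACS-enriched, tdTomato-positive cells of the embryonic preoptic area (POA), given as basal telencephalon in the sample labels, at E16 with the day of insemination counted as E1. Both genotypes carried Hmx3-Cre and the tdTomato reporter, on a C57BL/6J background. *Dnmt1* WT cells had wild-type *Dnmt1*. *Dnmt1* KO cells carried the Dnmt1 loxP2 allele (B6;129S-Dnmt1tm4Jae/J), in which exons 4 and 5 are floxed and from which Cre, active only in cells that express or once expressed *Hmx3*, makes a null allele. Cells of 12 WT embryos and of 6 KO embryos were pooled before sequencing, with 2 libraries per genotype, so the libraries do not stand for single animals. The libraries compare the transcriptomes of these cells with and without deletion of *Dnmt1*, which encodes the maintenance DNA methyltransferase. The values here describe the readers of the mark that DNMT1 writes.

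Methylated CpG is read by proteins of a few families. MBD proteins share the methyl-CpG binding domain and bring repressor complexes to methylated DNA, although *Mbd3* in mammals binds it poorly and *Mbd5* and *Mbd6* carry the domain without binding methylated DNA in most assays. The zinc finger proteins Kaiso (*Zbtb33*), *Zbtb4* and *Zbtb38* bind methylated DNA through their fingers and recruit co-repressors through a BTB domain. The promoters of such widely expressed genes usually lie in CpG islands, which remain unmethylated in most tissues.

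Promoter sequence is shown first, because CpG is the substrate of DNMT1 and of these readers. RefSeq windows of 300 bases (build GRCm38.p6), from 250 bases before to 50 bases after a transcription start, matched 7 of the 9 members in 11 windows. *Mbd1* and *Mbd2* had no matching entry. The 4 stretches of 100 bases below lie before the outermost start of 4 members. *Mbd6* and *Zbtb4* had the largest increases, *Zbtb33* had the only values lower in both KO libraries, and *Mbd3* was the most abundant. None overlaps an annotated exon, and capitals mark TGCGCA, the half-site of NRF1, a transcription factor whose binding is known to be blocked by CpG methylation.
*Mbd6*, chr10:127289019-127289118, minus strand: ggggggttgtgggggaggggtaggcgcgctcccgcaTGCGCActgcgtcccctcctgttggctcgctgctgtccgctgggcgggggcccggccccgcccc
*Mbd3*, chr10:80399551-80399650, minus strand: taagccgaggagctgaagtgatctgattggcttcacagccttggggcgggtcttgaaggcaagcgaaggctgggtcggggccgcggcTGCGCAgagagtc
*Zbtb4*, chr11:69765812-69765911, plus strand: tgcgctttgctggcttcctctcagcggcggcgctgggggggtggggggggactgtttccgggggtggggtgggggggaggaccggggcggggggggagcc
*Zbtb33*, chrX:38189693-38189792, plus strand: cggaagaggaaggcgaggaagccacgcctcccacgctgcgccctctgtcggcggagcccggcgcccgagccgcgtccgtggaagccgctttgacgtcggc

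The outermost windows of 6 of the 7 matched members held between 19 and 34 CpG dinucleotides, against a median of 7 over all 32851 RefSeq windows. Of the outermost windows that of *Zbtb33* had the most, 34, at percentile 93 of all windows, followed by *Mbd6* with 28 and *Mbd4* with 25. *Mbd3* and *Zbtb4* each had 22 and *Mbd5* had 19. *Zbtb38* had 8 CpG in its outermost window, while its other 2 windows held 41 and 25. The inner window of *Mbd6* held 44, the most of all 11 windows, and that of *Mbd5* held 4, the fewest. TGCGCA was present in the outermost windows of *Mbd3* (32 bases before and 37 bases after the start), *Mbd4* (224 and 185 bases before), *Mbd5* (36 bases after) and *Mbd6* (64 bases before), and in 4 of 7 in all. Counting every window it was in 6 of 11, an inner window of *Zbtb38* among them (196 bases before its start). The outermost and inner windows of *Mbd6* overlap and hold the same copy, so the 6 windows are not separate sites. This palindromic motif was chosen after the sequences had been seen. TGCGCA occurs in 7.76% of all windows and in 16.8% of the 9221 windows with at least 19 CpG, and none of the copies overlapped a CGCG. The Kaiso motif TCCTGCNA, searched on both strands, was in 1 outermost window, that of *Mbd3*, and in 4.96% of all windows. CGCG was in 4 outermost windows and in 38.0% of all windows. No methylation was measured in these libraries, so the windows describe sequence alone.

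**Figure D1:**
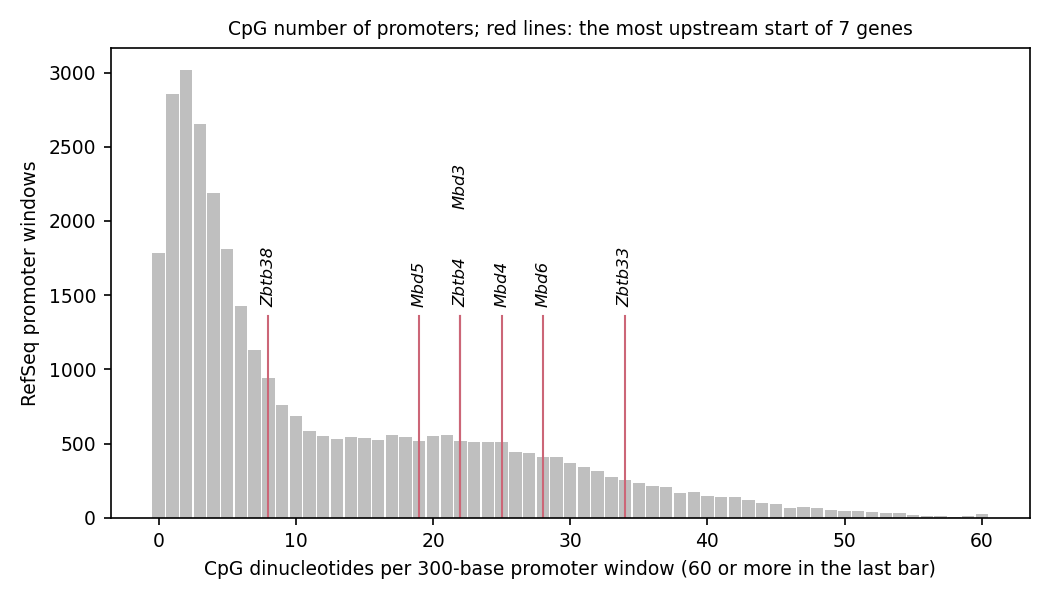
Number of CpG dinucleotides (horizontal axis) in the 300-base RefSeq promoter windows, shown as the distribution over all 32851 windows with the windows of the 7 matched members marked. The outermost windows of 6 members lie between 19 and 34 CpG, to the right of the median of 7, and that of *Zbtb38* lies at 8.

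The 4 libraries held between 8075102 and 9995968 counts, so that a gene with 3 counts stands at 0.294 to 0.372 CPM, here counts over the library total after TMM scaling. Libraries of one genotype differed by more than sampling noise. The mean chi-square per gene was 57.1 for the WT pair and 4.28 for the KO pair. It was taken on raw counts without TMM scaling and includes mitochondrial rRNA, so it does not describe a typical gene. Mitochondrial rRNA took 8.66% of WT 1 against 1.51% to 2.32% of the others. *Dnmt1* (chr9:20907209-20959888) was read at 3103 and 4557 counts in WT and at 2383 and 2552 in KO, lower in both KO libraries, by a log2 fold change of -0.56 ± 0.14 (SE) that missed the threshold (edgeR quasi-likelihood test, adjusted p = 0.0511). *Dnmt1* was called lower in 8 of 11 alternatives with all 4 libraries, at -0.46 to -0.59 over the 11, among them DESeq2 (adjusted p = 0.00843) and limma-voom (0.0358). It was also called without WT 1 (edgeR, 1.96e-07) or WT 2 (0.00283) but not without KO 1 (0.386) or KO 2 (0.521). Its count includes exons outside the deletion. Markers of the POA lineage were present in all libraries, with at least 604 counts of *Hmx3* and 1066 of *Gad1*, although *Lhx1* was low, at 27 and 10 in the WT libraries and 5 and 12 in the KO libraries. Of 8 such genes 0 were called changed and 2 had an unadjusted p under 0.05 (edgeR). All 8 fold changes were negative, against 8813 of all 16832 tested genes, with a median of -0.31 on the log2 scale. Of the 8, 5 lay below in both KO libraries, against 25.2% of all tested genes. Other cell types did differ between genotypes. Astrocyte markers were higher in KO in 10 of 10 genes, with a summed level of 231 to 241 CPM in WT and 3714 to 3918 in KO, and *Gfap* at 0 counts in both WT libraries. Oligodendrocyte markers were higher in 7 of 8 genes (130 to 154 CPM against 560 to 580, *Opalin* at 0 in both WT libraries), and mural cell markers in 7 of 7 (62.7 to 71.5 CPM against 417 to 422, *Acta2* at 0 in both WT libraries). Of 8 pan-neuronal markers 3 were lower in KO, with sums of 5308 to 5915 CPM in WT and 3866 to 3963 in KO. Among the remaining marker lists 1 of 5 oligodendrocyte precursor and 2 of 7 tested microglial genes were higher, 1 of 3 tested choroid plexus genes, *Ttr*, was lower, and 0 of 5 tested endothelial and 0 of 6 proliferation genes were called. The part of these cell types in the values of the 9 members was not tested. In pooled cells, fewer cells of a type and less RNA per cell cannot be told apart.

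All 9 members passed the filter on low counts and were tested among 16832 genes. One was called higher in *Dnmt1* KO cells, *Mbd6*, and 0 were called lower at an adjusted p under 0.05 (edgeR). Over all tested genes 7.33% were called higher and 0.57% lower, so that 1 of 9 is close to the background. At an unadjusted p under 0.05 there were 2 members, *Mbd6* and *Zbtb4*, against 22.7% of all genes. DESeq2 and limma-voom each also called 1 member higher and 0 lower, against 7.4% and 1.47% of all genes with DESeq2 and 7.21% and 0.594% with limma-voom. Both KO libraries lay above both WT libraries for 5 members and below them for 1, while 3 members overlapped. Over all genes the corresponding shares were 28.3% above and 25.2% below. The median log2 fold change of the 9 members was 0.14, and that of all tested genes -0.03.

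**Figure D2:**
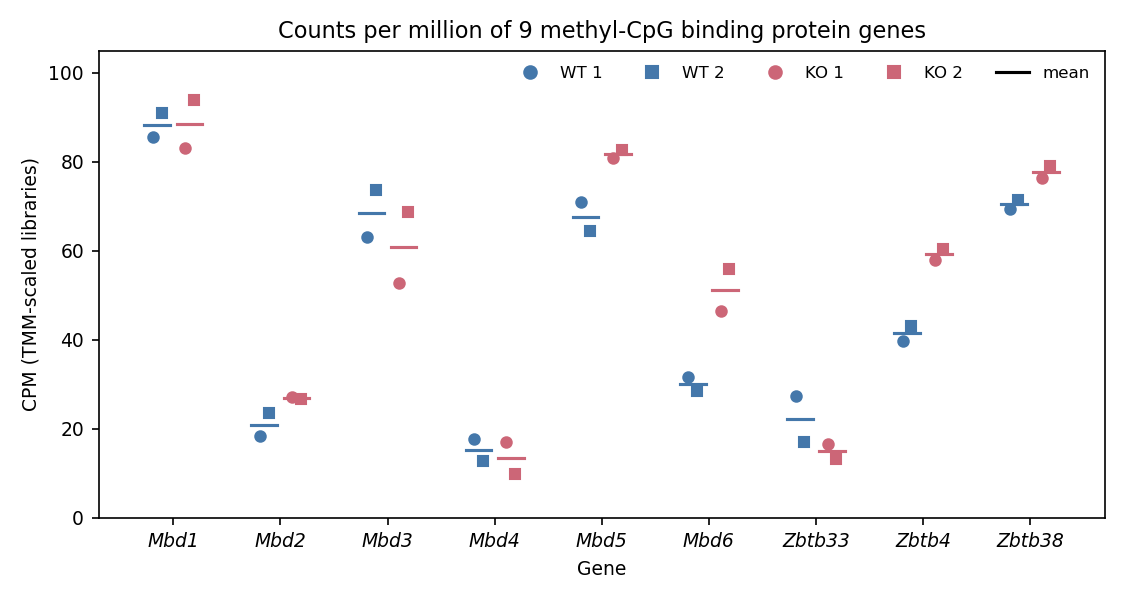
Level of each of the 9 members in CPM (vertical axis) in the 2 *Dnmt1* WT and 2 *Dnmt1* KO libraries, 1 point per library with the mean of each genotype. *Mbd6* was read at 28.4 and 31.7 CPM in WT and at 46.6 and 55.8 in KO, without overlap, while *Mbd1*, *Mbd3* and *Mbd4* overlapped between genotypes.

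*Mbd5* and *Mbd6* are paralogues whose proteins bind the PR-DUB complex, which removes ubiquitin from histone H2A. *Mbd6* (ENSMUSG00000025409, chr10:127281956-127289018, minus strand) was counted 255 and 290 times in WT and 392 and 507 times in KO. Its TMM-scaled level was 31.7 and 28.4 CPM in WT and 46.6 and 55.8 CPM in KO, or 30.0 ± 2.29 against 51.2 ± 6.53 (SD, n = 2 each). Both KO libraries lay above both WT libraries, and the gap between the groups was larger than the spread within either. *Mbd6* rose by 0.77 ± 0.17 (SE) on the log2 scale, a fold of 1.71 with a 95% interval of 1.30 to 2.25 (edgeR, adjusted p = 0.0311). It was the only member called. The call was lost when either KO library was left out, in fits that took the spread from the WT pair alone. The SE was then 0.308 without KO 1 and 0.317 without KO 2, against 0.17 with all 4 libraries. Without KO 1 the log2 fold change was 0.91 (edgeR, adjusted p = 0.0545) and without KO 2 it was 0.64 (adjusted p = 0.406), whereas *Mbd6* was still called without WT 1 (adjusted p = 4.41e-05) or WT 2 (0.00137), in fits that called 14.2% and 11.2% of all genes higher.

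*Mbd5* (ENSMUSG00000036792, chr2:48949508-49325405, plus strand), a gene whose loss of function causes intellectual disability in humans, was counted 572 and 658 times in WT and 680 and 751 times in KO. This gave 71.0 and 64.5 CPM in WT against 80.8 and 82.7 CPM in KO. The KO libraries were again the higher ones, by less than for *Mbd6*. A log2 fold change of 0.27 had a 95% interval of -0.06 to 0.60 and was not called (edgeR, adjusted p = 0.304). *Orc4* on the opposite strand shares 0.693% of the exonic bases of *Mbd5*. Per length, *Mbd6* stood at 1.97 and 1.94 times the level of *Mbd5* in WT and at 2.54 and 2.98 times in KO. Both KO ratios exceeded both WT ratios. An exact two-sided permutation test gave p = 0.333, the smallest that 2 against 2 libraries allow, so it cannot decide whether the ratio differs. That p was the same for each of the 4 ratios between members that were computed, before and after adjustment. The ratios restate the values of their members and add no separate result.

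The zinc finger readers had fold changes of both signs, and none was called with all 4 libraries under the genotype-only edgeR test, although alternatives called *Zbtb4* and *Zbtb33*. *Zbtb4* (ENSMUSG00000018750, chr11:69765912-69784023, plus strand), which binds single methylated CpGs as well as some unmethylated sites, was counted 320 and 441 times in WT and 488 and 549 times in KO. Its levels of 39.7 and 43.2 CPM in WT and 58.0 and 60.5 CPM in KO were tightly grouped within each genotype and did not overlap. Its log2 fold change, 0.51 ± 0.15 (SE) with a 95% interval of 0.17 to 0.86, did not pass the threshold (edgeR, adjusted p = 0.0847). Correcting each library for the length and GC content of genes brought *Zbtb4* past it (adjusted p = 0.0212, edgeR), as did leaving out WT 1 (0.45, adjusted p = 0.0437) or WT 2 (0.57, adjusted p = 0.00613). These fits called 14.2% and 11.2% of all genes higher. Without KO 1 the log2 fold change of *Zbtb4* was 0.555 and without KO 2 it was 0.488, and neither was called.

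*Zbtb33* (ENSMUSG00000048047, chrX:38189793-38197046, plus strand) encodes Kaiso, the founding member of the BTB group of methyl-DNA readers and a partner of p120 catenin. It was counted 221 and 174 times in WT and 140 and 120 times in KO, and so had the only member values that were lower in both KO libraries than in both WT libraries. In CPM the separation was narrow, with 27.4 and 17.1 in WT against KO values of 16.6 and 13.2. The difference was -0.57 ± 0.28 (SE) on the log2 scale, with a 95% interval of -1.21 to 0.07, and was not called (edgeR, adjusted p = 0.268). The value depended on the libraries kept and on the processing. Without WT 2 it was -0.89 and called (edgeR, adjusted p = 0.000998), in a fit that called 12% of all genes lower. Without WT 1 it was -0.20, without KO 1 -0.73 and without KO 2 -0.41, none of which was called. Correcting for the length and GC content of genes, with all libraries kept, gave -0.28 (adjusted p = 0.351). *Tmem255a*, on the opposite strand, shares 9.25% of the exonic bases of *Zbtb33*, and whether reads were counted by strand is not given in the sources used here.

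*Zbtb38* (ENSMUSG00000040433, chr9:96682770-96752831, minus strand), a methyl-DNA reader known to be expressed in the brain, was counted 559 and 730 times in WT and 642 and 718 times in KO. The CPM were 69.4 and 71.5 in WT and 76.3 and 79.1 in KO. Both KO libraries were the higher ones, by a log2 fold change of 0.14 with a 95% interval of -0.18 to 0.46 (edgeR, adjusted p = 0.593). Scaling by library size only gave 0.25 and the length and GC correction 0.24, neither of them called. Of the 2 ratios computed for *Zbtb4*, that to *Zbtb38* was 0.828 and 0.873 in WT and 1.10 and 1.11 in KO, and that to *Zbtb33* was 0.914 and 1.60 in WT and 2.20 and 2.89 in KO. In either ratio both KO libraries exceeded both WT libraries.

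Among the classical MBD proteins, *Mbd2* (ENSMUSG00000024513, chr18:70568189-70626131, plus strand) is the methyl-CpG binding subunit of the NuRD repressor complex. It was counted 148 and 240 times in WT and 229 and 243 times in KO, or 18.4 and 23.5 CPM against 27.2 and 26.8 CPM. The KO libraries lay close together and above both WT libraries, which were further apart. The log2 fold change of 0.36 had a 95% interval of -0.10 to 0.82 (edgeR, adjusted p = 0.326). It was 0.19 without WT 1 (adjusted p = 0.547) and 0.54 without WT 2 (0.0632). *Mbd3* (ENSMUSG00000035478, chr10:80392539-80399550, minus strand), which takes the place of *Mbd2* in a distinct form of NuRD, was counted 508 and 753 times in WT and 445 and 625 times in KO. Its levels overlapped, with 63.1 and 73.8 CPM in WT and 52.9 and 68.8 CPM in KO. They gave a log2 fold change of -0.17 with a 95% interval of -0.58 to 0.24 (edgeR, adjusted p = 0.613). The ratio of *Mbd3* to *Mbd2* per length was 5.55 and 5.08 in WT and 3.14 and 4.16 in KO, lower in both KO libraries.

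*Mbd1* (ENSMUSG00000024561, chr18:74267605-74282732, plus strand), a repressor that also binds unmethylated CpG through CXXC fingers and works with the H3K9 methyltransferase SETDB1, was the member with the least difference. It was counted 689 and 929 times in WT and 699 and 853 times in KO, at 85.5 and 91.0 CPM against 83.1 and 93.9 CPM. Its log2 fold change was 0.00 with a 95% interval of -0.34 to 0.34 (edgeR, adjusted p = 0.993). *Mbd4* (ENSMUSG00000030322, chr6:115840697-115853371, minus strand), a glycosylase that repairs deaminated methylcytosine, was counted 142 and 130 times in WT and 143 and 90 times in KO. Its CPM of 17.6 and 12.7 in WT and 17.0 and 9.91 in KO overlapped widely. The log2 fold change of -0.17 had the widest interval of the members, -0.90 to 0.56 (edgeR, adjusted p = 0.793). The antisense gene *Gm44206* shares 5% of its exonic bases.

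**Figure D3:**
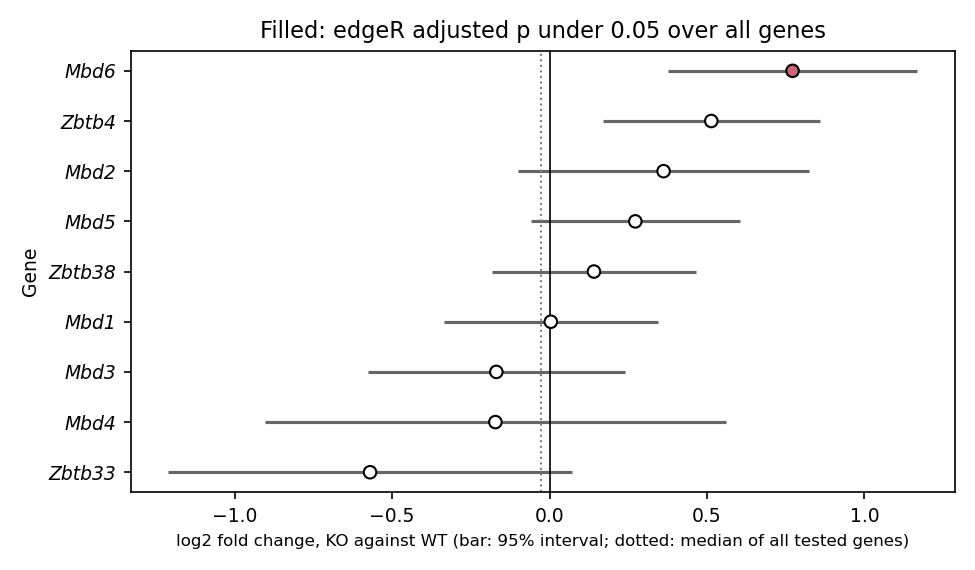
Log2 fold change of each member, *Dnmt1* KO over *Dnmt1* WT (horizontal axis), with bars for the 95% intervals from edgeR. The interval of *Mbd6* runs from 0.38 to 1.17 and that of *Zbtb4* from 0.17 to 0.86, while those of the other members include 0.

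Compared per kilobase of exon (RPKM), *Mbd3* was the most abundant member in both genotypes. It stood at 34.4 ± 3.81 in WT and 30.6 ± 5.66 in KO (SD, n = 2 each), which placed it at percentile 93.9 of all tested genes. *Mbd1* followed at 13.2 ± 0.580 in WT and 13.2 ± 1.15 in KO. In WT the next 3, *Mbd6* (6.74), *Mbd2* (6.52) and *Zbtb38* (6.01), each overlapped with their neighbour in the order. *Zbtb4* (5.11) lay below *Zbtb38* in both WT libraries, and *Zbtb33* (4.34), *Mbd5* (3.45) and *Mbd4* (2.88) again overlapped with their neighbours. In KO *Mbd6* (11.5 ± 1.46) overlapped with *Mbd1*. *Mbd2* (8.40), *Zbtb4* (7.30), *Zbtb38* (6.62), *Mbd5* (4.17) and *Zbtb33* (2.92) then followed without overlap, and *Mbd4* (2.55) overlapped with *Zbtb33*. *Mbd3* and *Mbd1* were thus first and second, and *Mbd4* last, in both genotypes.

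The 9 levels added up to 80.4 and 84.9 RPKM in WT and 82.2 and 92.4 RPKM in KO. *Mbd3* made up 39.5% and 43.8% of this sum in WT and 32.4% and 37.5% in KO. The share of *Mbd6* was 8.83% and 7.52% in WT and 12.7% and 13.6% in KO, and that of *Zbtb33* was 6.66% and 3.92% in WT and 3.95% and 2.79% in KO. The shares of *Mbd6* did not overlap between genotypes, whereas those of *Zbtb33* did, since KO 1 stood just above WT 2.

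**Figure D4:**
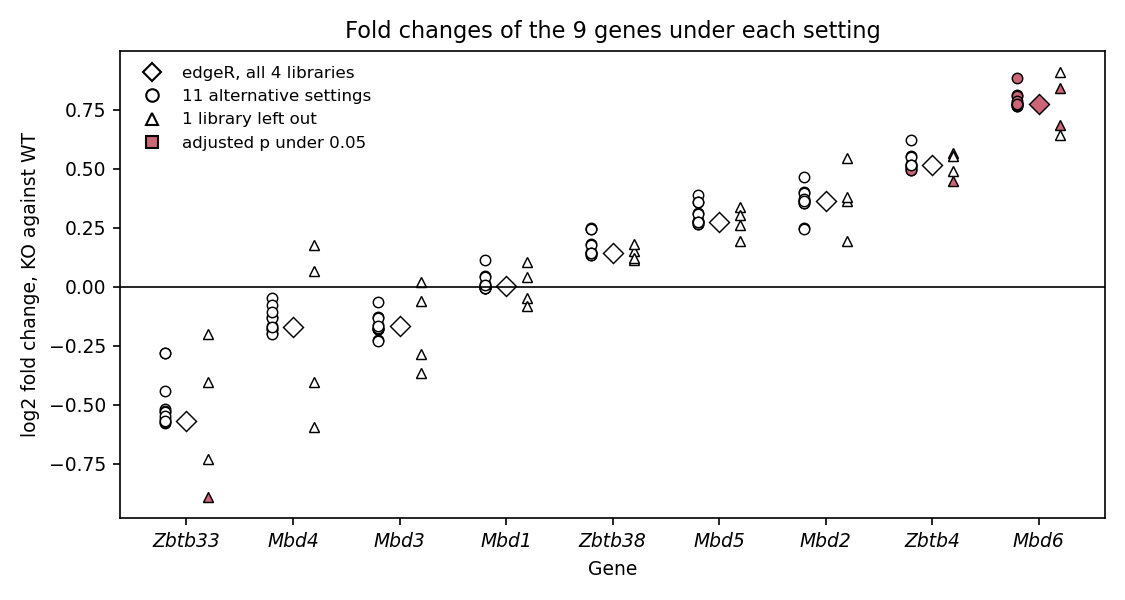
Log2 fold change of each member, *Dnmt1* KO over *Dnmt1* WT, under each alternative processing with all 4 libraries and with each library left out. *Mbd6* stayed between 0.64 and 0.91 across these, *Zbtb4* between 0.45 and 0.62, while *Mbd1*, *Mbd3* and *Mbd4* crossed 0 when a library was left out, *Mbd1* also under 4 alternatives with all libraries.

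The complexes and pathways through which these readers act were examined as 6 lists of 47 genes, of which 46 were tested. None was called in either direction (edgeR, 0 genes), and 4 had an unadjusted p under 0.05. Of all tested genes 7.33% were called higher, 0.57% lower, and 22.7% had such a p. DESeq2 called 0 higher and 1 lower, and limma-voom 0 in either direction. With edgeR, 1 was called higher and 6 lower without WT 1, where 14.2% of all genes were called higher and 7.15% lower. Without WT 2, 0 were called higher and 4 lower, where 11.2% of all genes were called higher and 12% lower. The fold changes were positive for 12 genes and negative for 34, against 8019 and 8813 over all tested genes. The median of the 46 was -0.10 on the log2 scale, against -0.03 for all tested genes. Of the 47, 5 lay above and 16 below in both KO libraries, against the 28.3% and 25.2% of all genes.

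Of the 6 partners of Kaiso, p120 catenin and subunits of the NCoR co-repressor, 0 were called and 0 had an unadjusted p under 0.05 (edgeR), with a median log2 fold change of -0.13. The NCoR subunit *Gps2* had the smallest adjusted p. Its levels were 38.7 and 53.3 CPM in WT and 30.4 and 36.9 CPM in KO, both KO libraries being the lower ones. The difference was -0.45 ± 0.20 (SE) on the log2 scale, with a 95% interval of -0.92 to 0.02 (edgeR, adjusted p = 0.235). *Gps2* was called lower with the length and GC correction (-0.61, adjusted p = 0.0123), also with the block added (0.00516), and without WT 1 (-0.67, adjusted p = 0.00109). Without WT 1 *Hdac3* was called lower as well (-0.45, adjusted p = 0.0132, edgeR), as was *Tbl1xr1* without WT 2 (-0.66, adjusted p = 9.39e-05).

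Of the 13 NuRD genes, which serve *Mbd2* and *Mbd3*, 0 were called and 1 had an unadjusted p under 0.05 (edgeR). Of these 12 had negative fold changes, against 8813 of all 16832 tested genes, with a median of -0.13. The histone deacetylase *Hdac2* came closest, at 354 and 313 CPM in WT and 245 and 219 CPM in KO, at -0.52 ± 0.14 (SE) on the log2 scale (edgeR, adjusted p = 0.0707). It was called lower with DESeq2 (adjusted p = 0.0188), without a filter (0.0206), with the replicate block (0.0171), with the length and GC correction (-0.39, 0.03), with correction and block (0.0215), and without WT 1 (0.00345) or WT 2 (3.15e-05). It was not called without KO 1 or KO 2, nor with limma-voom, another scaling, a minimum of 10 counts per library or mitochondrial and rRNA genes removed. The remaining NuRD calls were all of lower genes (edgeR). They were *Mta3* with the correction (adjusted p = 0.0451), with correction and block (0.0367) and without WT 1 (0.0183), *Mta2* with correction and block (0.0366), and *Chd3* without WT 1 (0.015).

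The other 4 lists likewise held no called gene. Of the 6 *Mbd1* partners 5 were tested, since *Atf7ip2* had 0 counts in all 4 libraries, and 0 had an unadjusted p under 0.05 (edgeR), with HP1 alpha (*Cbx5*) at the smallest adjusted p, 0.240. Of the 9 genes of the repair pathway of *Mbd4* 8 had negative fold changes, against 8813 of all 16832 tested genes. None had an unadjusted p under 0.05 (edgeR), with the gap-filling polymerase *Polb* at -0.32 (adjusted p = 0.240). Of the 8 PR-DUB genes, partners of *Mbd5* and *Mbd6*, 4 were positive and 4 negative and 1 had an unadjusted p under 0.05, with the transcription factor *Foxk1* at 0.37 (edgeR, adjusted p = 0.20). Of the 5 other proteins with a methyl-CpG binding or related domain 2 had an unadjusted p under 0.05, with the hemimethylation reader *Uhrf2* at -0.35 (edgeR, adjusted p = 0.20). Without WT 2 both *Cbx5* (-0.56, adjusted p = 2.72e-05) and *Uhrf2* (-0.46, adjusted p = 0.00968) were called lower with edgeR. The other calls in these lists were of both directions, and these genes were named after their values were seen. *Ogt* was higher with the length and GC correction (0.40, adjusted p = 0.0349), with the block added (0.0209) and without WT 1 (0.000793). *Baz2a* was higher with block and correction together (adjusted p = 0.0441), and *Bap1* was lower with both together (0.0326) and without WT 1 (0.0293).

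**Figure D5:**
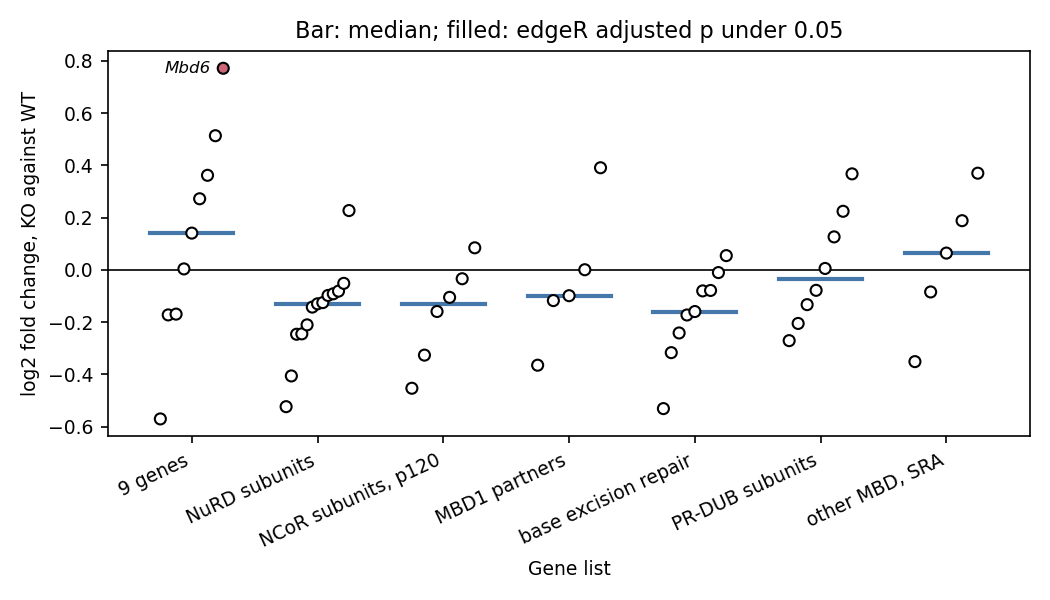
Log2 fold change, *Dnmt1* KO over *Dnmt1* WT (vertical axis), of the 9 members and of the 46 tested genes of the 6 partner lists, 1 point per gene, with bars for the medians and a filled point for a gene called by edgeR. *Mbd6* is the one filled point, at 0.77, and 12 of the 13 NuRD genes lie below 0. Of all 16832 tested genes, not drawn here, 8813 lie below 0.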

How the data were processed

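RNA of FACS-enriched POA cells was sequenced in 2 *Dnmt1* WT and 2 *Dnmt1* KO libraries, grouped by the sample labels. The deposited values are the authors' raw counts of reads for each Ensembl gene, not normalized. The submitters' processing notes name CASAVA 1.8.2, STAR 2.5.2a and featureCounts 1.5.0-p1, and the strand setting is not given in the sources used here. The study's methods describe technical duplicates of pooled samples and its design text biological replicates, so p-values measure only the spread between these libraries, which may be technical. Of 55573 gene identifiers, 55480 matched GENCODE M21 (GRCm38), which gave symbols, positions and exonic lengths.

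Counts were filtered by expression, scaled by TMM and tested for genotype alone with the quasi-likelihood test of edgeR 4.0.16 (limma 3.58.1, R 4.3.3), with Benjamini-Hochberg adjustment over 16832 genes. Genes with an adjusted p under 0.05 were called changed. Intervals cover 95%. RPKM are TMM-scaled CPM per kilobase of exon. Totals of 8075102 to 9995968 counts put 3 counts at 0.294 to 0.372 CPM, which covers counting error only. Alternatives were DESeq2 1.42.0, limma-voom, DESeq2 size factors, library size or upper quartile scaling, the absence of a filter, a minimum of 10 counts per library, a replicate block, a correction for the length and GC content of genes, block and correction together, and each library left out. Removal of mitochondrial and rRNA genes was added after seeing the data. The procedures were tested on simulated data.

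The members, partner lists and marker lists (astrocyte, oligodendrocyte and its precursors, mural, endothelial, microglial, choroid plexus, pan-neuronal, POA interneuron, proliferation) were chosen with earlier results of these data known. Named genes are the members, *Dnmt1*, and for each partner list its called genes or, with none, the gene with the smallest adjusted p. Partner genes named only for calls under an alternative, marker genes and overlapping genes fall outside this rule and were chosen after their values were seen. One gene of the partner lists is not reported here and is in none of their counts.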

Additional observations from a re-analysis of the deposited data

How the results depend on the processing

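With all 4 libraries, 11 alternatives left *Mbd6* called, at log2 fold changes of 0.76 to 0.89 and adjusted p of 0.000818 to 0.0355 (edgeR, DESeq2 or limma). *Zbtb4* was called in 3 of 11. The number of members called higher was 2, *Mbd6* and *Zbtb4*, with a correction for the length and GC content of genes, with a replicate block and with both, and 0 to 2 with a library left out, while 0 to 1 were called lower. Replicate numbers shared by WT and KO have no stated pairing (correlation of deviations 0.137), and the block brought *Zbtb4* to an adjusted p of 0.0397 (edgeR), at 0.52. Against 1233 genes higher and 96 lower, the block gave 1625 and 619, the correction 1901 and 903, both together 2035 and 1136, and leaving out a library 900 to 2578 and 51 to 2180. Genes lower were 247 with DESeq2, 573 without a filter and 52 with at least 10 counts in every library. Partner genes called higher were 1 with the correction, 2 with both, and 0 to 1 with a library left out. Partner genes lower were 1 with DESeq2, without a filter or with the block, 3 with the correction, 5 with both, and 0 to 6 with a library left out. *Mbd1* turned to -0.0053 with DESeq2 or its size factors, -0.0063 with the correction and -0.0065 with both. With a library left out *Mbd1* ran from -0.083 to 0.102, *Mbd3* from -0.37 to 0.019 and *Mbd4* from -0.60 to 0.174. The cause was not tested. Scaling by library size only moved the median of all genes from -0.03 to 0.08. Fits without 1 library assume that the lone library varies like the other genotype.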
